A study of Homo sapiens with 6 samples.

Results

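Mitosis and kinetochore genes were listed by name: 52 genes that encode the cyclin-CDK1 switch, the mitotic kinases, the spindle checkpoint, the kinetochore, the spindle and the condensed chromosome. They were matched by gene symbol to the count tables of 6 RNA-seq libraries, which held 60609 genes in all. A row was found for 51 of the 52, and all 51 passed the filter on low values (a mean normalized count of at least 5). The symbol FOXM1-AS1, an antisense RNA of the FOXM1 gene, matched no row and was not analysed here. The rule itself uses names and no measured value, although the names were chosen with earlier results of these data known.

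All libraries were poly(A) RNA of K562, an established human leukaemia line with erythroid and megakaryocytic features. Every cell carried EP400-dTAG, a degradation tag on the endogenous EP400 protein, and was kept in 500 nM dTAGV-1, the compound that triggers loss of the tagged protein, for 24 h. The 3 WT libraries came from cells that also expressed WT EP400 from the AAVS1 safe-harbour locus, and the 3 Delta-TRRAP libraries from cells whose AAVS1 transgene lacked the EP400 domains that hold TRRAP. EP400 is the ATPase and scaffold of the TIP60 chromatin complex, and TRRAP is its subunit that contacts transcription factors. Each line was a single clone derived from the same tagged parent, so genotype and clone cannot be told apart. There were no untagged or untreated cells among these 6 libraries.

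Mitosis is started by CDK1 bound to A- and B-type cyclins, which drives chromosome condensation, breakdown of the nuclear envelope and assembly of the spindle. Kinetochores are protein assemblies built on the centromere that grip spindle microtubules. Until every kinetochore is attached, the spindle checkpoint holds back the ubiquitin ligase that destroys cyclin B and securin and so opens anaphase. Most of these genes are transcribed late in the cell cycle, and many of their promoters carry a cell cycle homology region (CHR) bound by the DREAM and MYB-MuvB complexes, often with CCAAT boxes bound by NF-Y.

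The libraries held 35076835 to 42616061 counts in genes. The mitochondrial share was 3.18% to 3.71% in WT libraries, and in Delta-TRRAP libraries 5.07% to 6.24%. All 18 erythroid and megakaryocytic markers had counts, and their levels differed widely between the groups. In the edgeR test 11 were higher in Delta-TRRAP, 4 were lower and 9 passed a fold of 2, with a median log2 fold change of 0.73. Over all genes tested those shares were 30.7%, 27.6% and 22.6%. ALAS2, the erythroid enzyme of heme synthesis, had 1138 to 1304 raw counts in WT against 15437 to 17580, and SLC4A1, the red cell anion exchanger, 207 to 224 against 3811 to 4571. TFRC, the transferrin receptor, went the other way, with 187546 to 200275 against 80995 to 98494. The labels call the cells lymphoblasts, but of 11 lymphoid markers MS4A1 was at 0 in every library, 9 or 10 had a count in any given library, and their summed level was 399 to 415 CPM (counts scaled to library size) in WT against 113 to 126 in Delta-TRRAP. Most of that sum was PTPRC, and without it the sum was 12.5 to 12.7 CPM in WT against 12.2 to 13.1. Of 12 fibroblast markers, LUM and PDGFRA were at 0, and the summed level was 33.5 to 37.5 CPM in WT against 48.0 to 56.9 in Delta-TRRAP. Of the 7 that were tested, 4 were higher, 1 was lower and 2 did not pass. COL1A2 had 0 to 4 raw counts in WT against 788 to 947. COL6A3, which made up most of the WT sum, went the other way, with 1285 to 1417 against 765 to 1116. The part that these differences between the clones play in the results below was not tested.

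Transcripts of the mitosis and kinetochore genes were mostly lower in Delta-TRRAP, by modest amounts. In the edgeR quasi-likelihood test, 32 of 51 were lower at an adjusted p of 0.01 or less, against 27.6% of all 19114 genes tested. Only 3 were higher, PTTG1, HMMR and ECT2, against 30.7% of all genes. A further 16 did not pass. A single gene, MAD2L1, also reached a fold change of 2, which 22.6% of all genes did in either direction. The median log2 fold change, Delta-TRRAP over WT, was -0.38 over the 51 genes and 0.03 over all genes.

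These are highly expressed genes, and highly expressed genes of any kind tended to be lower in Delta-TRRAP. Of 6804 genes with a mean normalized count of 1000 or more, 45.9% were lower and 22.1% higher, with a median of -0.14. Of the mitosis and kinetochore genes, 49 belonged to that range, of which 32 were lower, 3 were higher and the median was -0.34. A fold change of 2 in either direction, at the same adjusted p, was reached by 429 of the 6804 and by 1 of the 49. Across libraries, the 51 genes together took 0.946%, 0.941% and 0.949% of all counts in WT and 0.778%, 0.791% and 0.765% in Delta-TRRAP. The median of the 51 genes in each Delta-TRRAP library, relative to the WT mean on the log2 scale, was -0.38, -0.29 and -0.41, so the 3 libraries lay on the same side and the replicate labelled 2 lay nearest to WT. In bulk RNA, fewer cells in mitosis and less RNA per mitotic cell cannot be told apart.

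**Figure D1:**
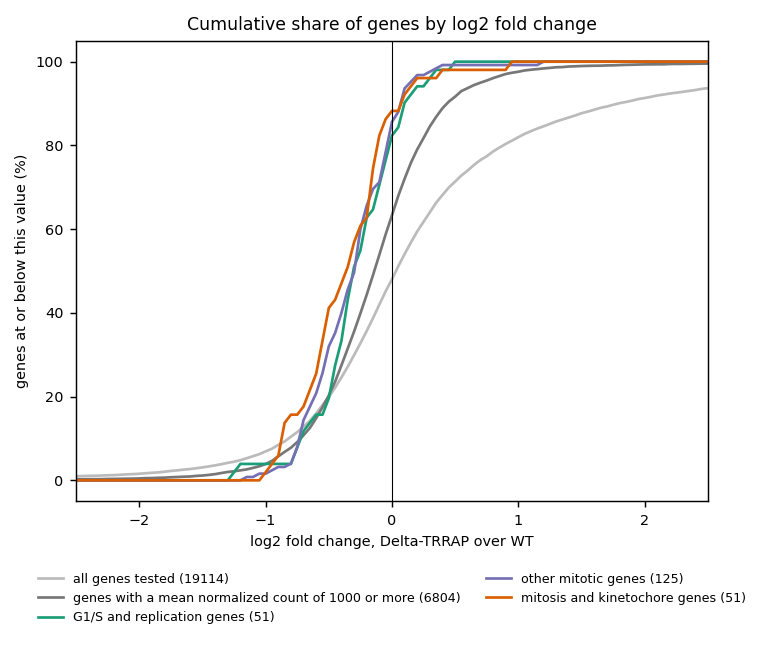
Cumulative share of genes (vertical axis, percent) at or below each log2 fold change, Delta-TRRAP over WT (horizontal axis), for all 19114 genes tested, for the 6804 with a mean normalized count of 1000 or more, for 51 mitosis and kinetochore genes, and for 2 comparison lists of 125 other mitotic and 51 G1/S and replication genes. The curve of the mitosis and kinetochore genes lies to the left of the curves of all genes and of highly expressed genes from -0.85 upwards, with a median of -0.38 against 0.03 and -0.14.

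Separation between the groups was counted as well. In 40 of the 51 genes every Delta-TRRAP library was below every WT library, which 33.7% of all genes also showed. In 4 genes every Delta-TRRAP library was above every WT library, against 37.4% of all genes, and in 7 the groups overlapped. Of the 6804 genes with a mean normalized count of 1000 or more, 3517 were below in this way and 1808 above. Of the 49 listed genes in that range, 39 were below and 4 above.

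**Figure D2:**
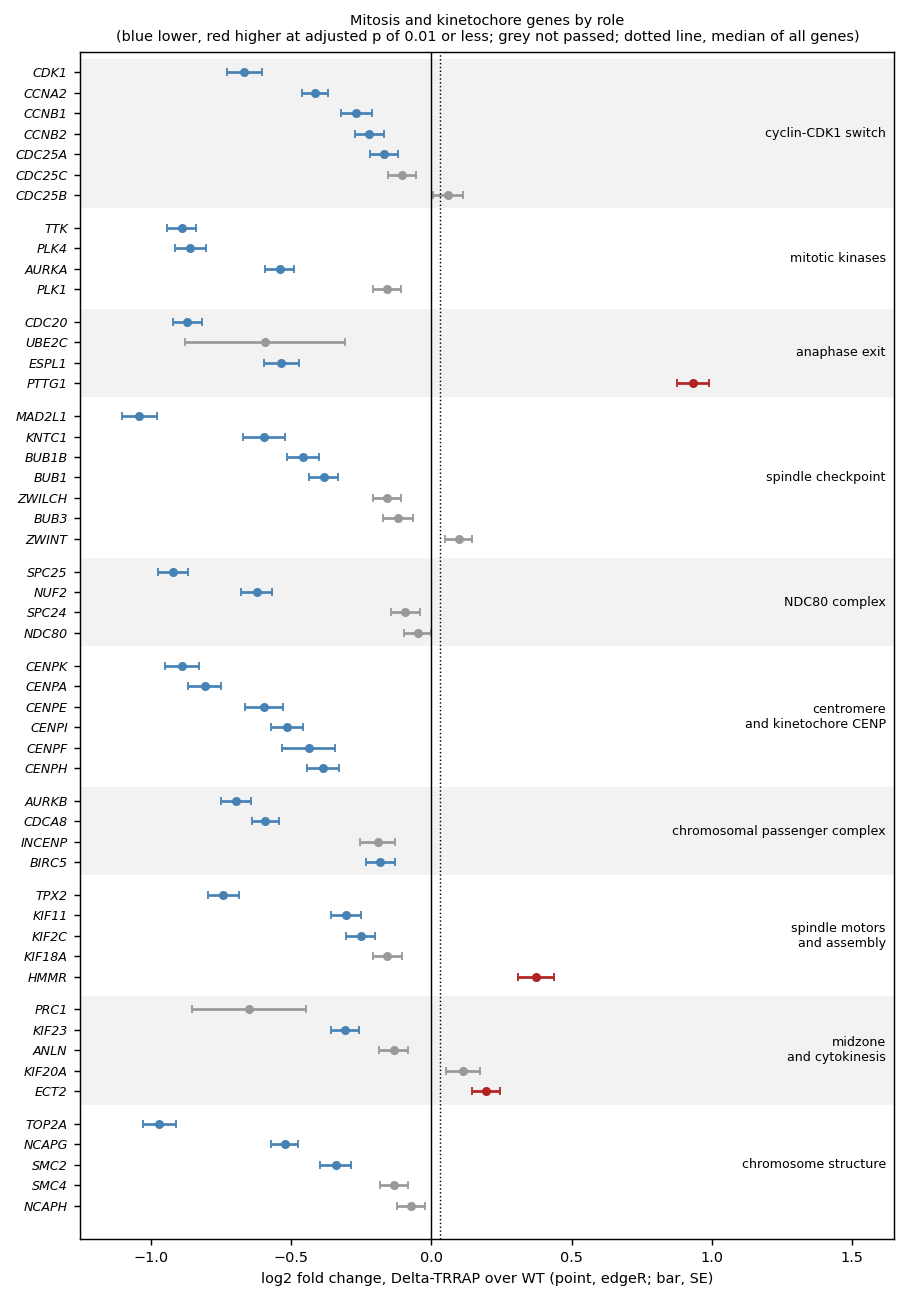
Log2 fold change, Delta-TRRAP over WT (horizontal axis; point, edgeR estimate; bar, standard error), of each of 51 genes, grouped by role and ordered by value within a role. Blue genes were lower and red genes higher at an adjusted p of 0.01 or less, grey genes did not pass, and the dotted line is the median of all genes, 0.03; the values run from -1.04 for MAD2L1 to 0.93 for PTTG1.

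Promoters are shown because members of the set share motifs that the listing by name did not use. RefSeq promoters on GRCh38.p14, from 250 bases before to 50 bases after a start site, were found for 43 of the genes and comprised 58 start sites. None was matched for CENPH, BUB3, TTK, BIRC5, AURKA, TPX2, KNTC1 and UBE2C. Below are the promoters of MAD2L1, which fell most, of PTTG1, which rose most, and of the genes of the cyclin-CDK1 switch and the mitotic kinases that hold both a CHR and a CCAAT box at a single start, each at the start with most matches. PLK4 holds them at different starts and is not shown. The sequences are written 5′ to 3′ in the direction of the gene, with every match to the CHR (TTTGAA) or the CCAAT box (CCAAT), on either strand, in capitals.
MAD2L1 (chr4:120066799-120067098, minus strand): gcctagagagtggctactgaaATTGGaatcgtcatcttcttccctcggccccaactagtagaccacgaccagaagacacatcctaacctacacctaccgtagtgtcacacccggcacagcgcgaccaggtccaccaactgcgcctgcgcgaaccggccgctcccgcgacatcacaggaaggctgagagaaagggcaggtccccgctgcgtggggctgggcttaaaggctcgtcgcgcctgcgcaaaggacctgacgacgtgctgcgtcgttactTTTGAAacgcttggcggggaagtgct
PTTG1 (chr5:160421605-160421904, plus strand): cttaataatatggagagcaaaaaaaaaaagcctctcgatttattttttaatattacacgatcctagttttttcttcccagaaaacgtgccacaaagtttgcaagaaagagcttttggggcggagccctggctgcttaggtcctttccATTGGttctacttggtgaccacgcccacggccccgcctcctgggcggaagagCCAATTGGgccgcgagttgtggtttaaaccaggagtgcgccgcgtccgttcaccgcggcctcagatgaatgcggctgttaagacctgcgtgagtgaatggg
CCNB2 (chr15:59104896-59105195, plus strand): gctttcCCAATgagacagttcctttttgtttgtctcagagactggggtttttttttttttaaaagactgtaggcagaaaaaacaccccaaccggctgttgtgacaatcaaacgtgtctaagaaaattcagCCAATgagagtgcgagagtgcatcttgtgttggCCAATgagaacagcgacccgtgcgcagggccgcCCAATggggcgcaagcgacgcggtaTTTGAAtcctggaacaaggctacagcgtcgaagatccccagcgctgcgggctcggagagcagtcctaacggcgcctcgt
CDK1 (chr10:60778228-60778527, plus strand): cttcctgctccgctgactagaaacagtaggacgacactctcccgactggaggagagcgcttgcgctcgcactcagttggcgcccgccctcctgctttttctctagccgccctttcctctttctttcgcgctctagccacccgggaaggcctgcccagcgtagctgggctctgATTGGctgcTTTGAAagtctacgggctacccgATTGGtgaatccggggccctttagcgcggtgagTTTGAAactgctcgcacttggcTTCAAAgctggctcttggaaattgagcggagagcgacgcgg
CDC25C (chr5:138331828-138332127, minus strand): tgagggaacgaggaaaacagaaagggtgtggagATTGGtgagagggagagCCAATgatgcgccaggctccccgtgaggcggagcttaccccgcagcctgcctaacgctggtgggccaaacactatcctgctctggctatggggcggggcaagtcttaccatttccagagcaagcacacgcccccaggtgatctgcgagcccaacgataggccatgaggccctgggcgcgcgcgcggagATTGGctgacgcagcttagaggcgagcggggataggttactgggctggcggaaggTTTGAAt
PLK1 (chr16:23678639-23678938, plus strand): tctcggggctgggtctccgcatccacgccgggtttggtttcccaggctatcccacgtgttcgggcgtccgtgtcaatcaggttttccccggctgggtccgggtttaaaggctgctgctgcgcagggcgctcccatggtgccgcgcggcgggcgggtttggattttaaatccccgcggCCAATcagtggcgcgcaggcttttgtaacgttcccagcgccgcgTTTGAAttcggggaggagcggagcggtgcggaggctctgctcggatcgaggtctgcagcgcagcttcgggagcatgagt

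Positions are those of the leftmost base of a match, counted from the start site as +1, with negative values before it. In CCNB2 the CHR stands at -29, with CCAAT boxes at -54, -87, -120 and -244. PLK1 has its CHR at the same distance, -29, with a CCAAT box at -73. CDK1 holds 3 CHR matches, at -69, -13 and 10, and CCAAT boxes at -78 and -46. PTTG1 holds 3 CCAAT matches and no CHR at either of its listed starts. MAD2L1 has a CHR at 25 and a lone CCAAT match at -229, and CDC25C has a CHR at 44 with CCAAT boxes at -12, -200 and -217. From another listed start of CDC25C the same CHR lies at -30, with a CCAAT box at -85.

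Over all 58 promoters of the set, 55.2% held a CHR, against 15.2% of all 35116 RefSeq promoters of the same length. A CCAAT box was present in 67.2%, against 34.6%, and both motifs in 39.7%, against 5.90%. An E2F-like site (TTTNNCGC, either strand) was present in 10.3%, against 6.89%. Promoters of the other mitotic genes compared below lay between, with a CHR in 33.8%, a CCAAT box in 51.7% and both in 23.4%. Promoters of G1/S and replication genes held a CCAAT box about as often as these, in 56.1%, but a CHR in 5.26% and an E2F-like site in 45.6%. A CHR and a CCAAT match shared bases in 1 of the 58 promoters.

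Position also differed. Of 41 CHR matches in the set, 70.7% began between -40 and 50 from the start, against 24.5% of 6238 in all promoters. Of 78 CCAAT matches, 71.8% began between -130 and -40, against 45.0% of 17602. These windows were chosen after the positions had been seen. Promoters of nearby starts can overlap, and a site that they share, as in CDC25C and ZWINT, was counted once per start. The 28 genes with a CHR spread from -1.04 to 0.37 in log2 fold change around a median of -0.39. The 15 without it spread from -0.89 to 0.93 around a median of -0.25, so the ranges largely overlapped, and the difference was not tested. For the CCAAT box the order was reversed, with a median of -0.30 in 33 genes with it and -0.40 in 10 without. For the E2F-like site it was -0.53 in 5 genes with it and -0.29 in 38 without. These differences were not tested either.

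**Figure D3:**
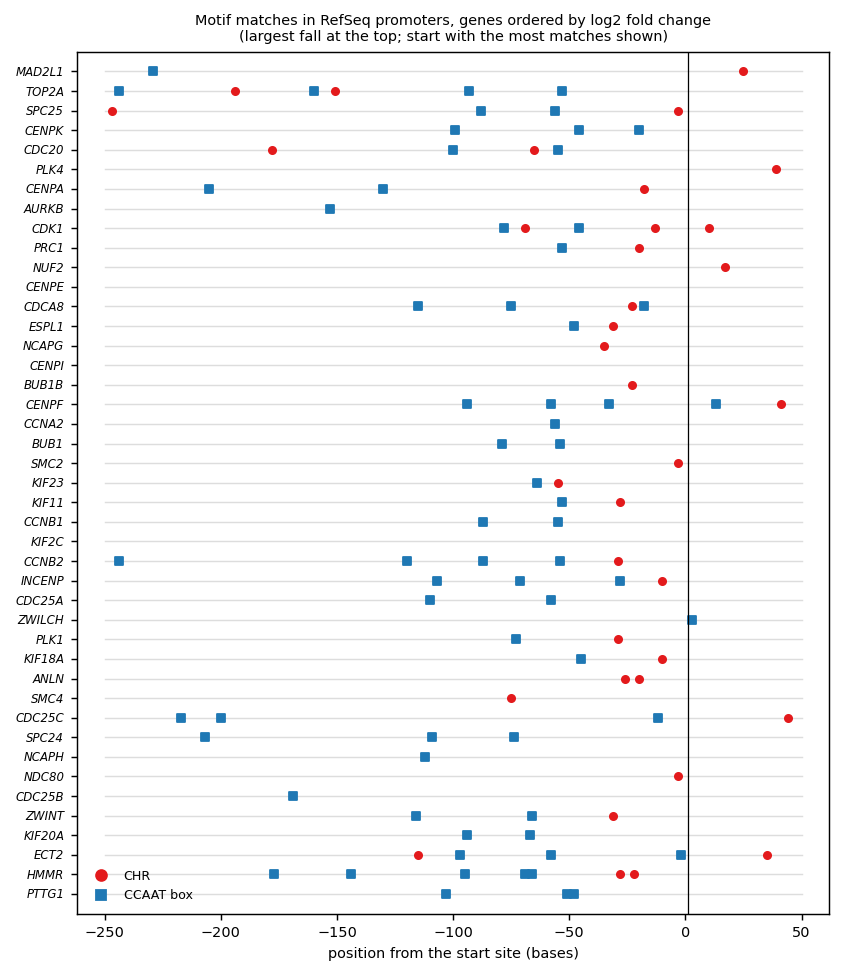
Positions of CHR matches (red circles) and CCAAT boxes (blue squares) along the RefSeq promoters of 43 genes (horizontal axis, bases from the start site, drawn as a vertical line), 1 start per gene, ordered from the largest fall in Delta-TRRAP at the top to the largest rise at the bottom. Red circles gather near the start site and blue squares just before it, in genes from the top to the bottom of the order.

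The counts by role below stand beside 27.6% lower among all genes and 45.9% among highly expressed genes. No role was tested against these shares. The cyclin-CDK1 switch was lower at 5 of its 7 genes, with a median log2 fold change of -0.22. CDK1, the kinase of mitotic entry (chr10:60778331-60794852), had normalized counts of 29925, 26940 and 25127 in WT and 17657, 16693 and 17317 in Delta-TRRAP. The groups were well apart, and the fall was 37.0% (log2 -0.67 ± 0.06, SE; edgeR adjusted p = 1.53e-07). CCNB1, the main B-type cyclin (chr5:69167135-69178245), had 6333, 7058 and 6723 in WT and 5400, 5572 and 5748 in Delta-TRRAP. Its groups did not overlap either, but its difference was smaller, -0.27 ± 0.05 (edgeR adjusted p = 0.000430), and with counts scaled by library size alone it was -0.13 with an adjusted p of 0.0352.

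The A-type cyclin CCNA2 fell by 0.41 on the log2 scale, CCNB2 by 0.22 and the phosphatase gene CDC25A by 0.17. With counts scaled by the upper quartile or by library size alone CCNB2 was -0.12 and -0.09 and CDC25A -0.07 and -0.03, and neither passed. CDC25A also lost its call without any of 4 single libraries, the WT libraries labelled 2 and 3 and the Delta-TRRAP libraries labelled 1 and 3, at -0.15 to -0.18 with adjusted p-values of 0.0136 to 0.0297. Its relatives CDC25B and CDC25C, which also remove inhibitory phosphates from CDK1, had values of 0.06 and -0.10 and did not pass. In each library the ratio of CDK1 to CCNB1 counts was taken, a pair chosen after the values had been seen. It was 4.73, 3.82 and 3.74 in WT and 3.27, 3.00 and 3.01 in Delta-TRRAP, without overlap, and the two-sided exact permutation p was 0.1, the smallest that 3 against 3 can give.

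Among the mitotic kinases 3 of 4 were lower. TTK, the kinase that starts checkpoint signalling at kinetochores (chr6:80003887-80042527), had 7581, 6796 and 7079 in WT and 3851, 3881 and 3850 in Delta-TRRAP. That was a fall of 46.0% with no overlap (log2 -0.89 ± 0.05, edgeR adjusted p = 9.29e-10). PLK4, which licenses centriole duplication, fell by a like amount, 0.86 on the log2 scale.

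AURKA, which acts at spindle poles (chr20:56369389-56392337), had 4593, 5105 and 4919 in WT and 3328, 3348 and 3377 in Delta-TRRAP. The difference was -0.54 ± 0.05 with an edgeR adjusted p of 2.31e-07. PLK1, which acts from mitotic entry to cytokinesis (chr16:23677656-23690367), was the exception, with 4905, 5263 and 5362 in WT and 4617, 4673 and 4638 in Delta-TRRAP. Its groups were apart but close, and at -0.16 ± 0.05 it just missed the threshold (edgeR adjusted p = 0.0126). Without the WT library labelled 1 it passed, at -0.20 with an adjusted p of 0.00443.

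**Figure D4:**
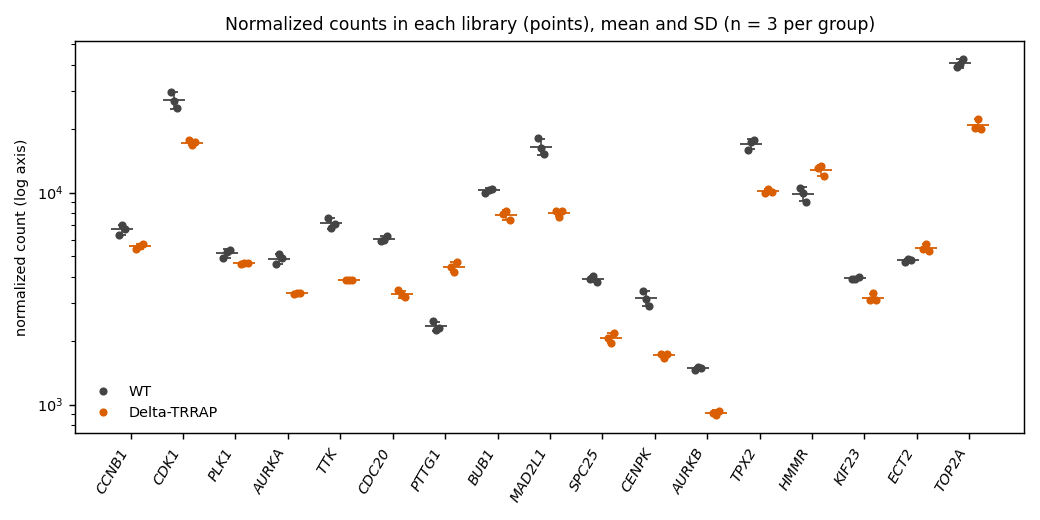
Normalized counts (vertical log axis) of 17 named genes in each of 3 WT libraries (grey points) and 3 Delta-TRRAP libraries (orange points), with the mean and SD of each group drawn as a dash with bars. The orange points lie below the grey in 14 genes and above them in PTTG1, HMMR and ECT2.

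Genes of anaphase and mitotic exit moved in opposite directions. CDC20, the activator of the anaphase-promoting complex (chr1:43358981-43363203), had 5929, 5996 and 6240 in WT and 3462, 3276 and 3209 in Delta-TRRAP. No library of either group came near the other, and the fall was 45.2% (log2 -0.87 ± 0.05, edgeR adjusted p = 8.28e-10). PTTG1, which encodes securin, the inhibitor of separase (chr5:160421855-160428739), had 2475, 2245 and 2292 in WT and 4470, 4220 and 4681 in Delta-TRRAP. It was the largest rise of the set, 1.91-fold, with no overlap (log2 0.93 ± 0.06, edgeR adjusted p = 1.21e-09).

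ESPL1, the separase that securin holds in check, fell by 0.53 on the log2 scale. The ratio of PTTG1 to ESPL1 counts, chosen after the values had been seen, was 1.42 ± 0.07 in WT and 3.96 ± 0.50 in Delta-TRRAP (SD, n = 3 each; two-sided exact permutation p = 0.1, the smallest possible). UBE2C, the ubiquitin-conjugating enzyme of the same pathway, had only 24, 25 and 18 raw counts in WT and 20, 13 and 11 in Delta-TRRAP. At that depth its value of -0.59 ± 0.29 did not pass (edgeR adjusted p = 0.0782). The annotation used here names 5 UBE2C pseudogenes, and reads that map to several places had been discarded by the authors.

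The spindle checkpoint was lower at 4 of 7 genes, among them the largest fall of the set. MAD2L1, which encodes the MAD2 protein that sequesters CDC20 (chr4:120055623-120066858), had 18040, 16193 and 15163 in WT and 8166, 7693 and 8168 in Delta-TRRAP. Every Delta-TRRAP library lay far below every WT library, and the level fell by 51.4% (log2 -1.04 ± 0.06, edgeR adjusted p = 1.10e-09). It was the only gene past a fold of 2, at 2.06-fold, and TOP2A, at 1.96-fold, was the nearest on the other side of that limit.

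BUB1, a checkpoint kinase of the kinetochore (chr2:110637528-110678063), had 9994, 10280 and 10445 in WT and 7896, 8214 and 7442 in Delta-TRRAP. It was lower without overlap (-0.38 ± 0.05, edgeR adjusted p = 9.71e-06). BUB1B, which encodes the checkpoint protein BUBR1, fell by 0.46 and KNTC1, a subunit of the RZZ complex that brings dynein to kinetochores, by 0.60. BUB3, ZWILCH and ZWINT did not pass, with values of -0.12, -0.16 and 0.10. MAD2L1 and BUB3 supply proteins of the same inhibitor complex, and their count ratio was 1.76 ± 0.21 in WT and 0.931 ± 0.048 in Delta-TRRAP (SD, n = 3 each; chosen after the values had been seen; two-sided exact permutation p = 0.1).

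The NDC80 complex, the part of the kinetochore that binds microtubules, has 4 subunits that work in equal numbers, yet its transcripts split into pairs. SPC25 (chr2:168834132-168913371) had 3901, 4039 and 3800 in WT and 2061, 1961 and 2182 in Delta-TRRAP, a fall of 47.2% with no overlap (log2 -0.92 ± 0.05, edgeR adjusted p = 7.89e-10). NUF2 fell by 0.62. NDC80 and SPC24, by contrast, had values of -0.05 and -0.09 with overlapping groups and did not pass.

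These last values were small enough to depend on scaling: with library size alone NDC80 was 0.08 and SPC24 was 0.04. The ratio of SPC25 to SPC24 counts was 1.76 ± 0.01 in WT and 0.991 ± 0.048 in Delta-TRRAP. That of NUF2 to NDC80 was 1.01 ± 0.05 and 0.679 ± 0.029 (SD, n = 3 each). Both pairs were chosen after the values had been seen, neither overlapped between groups, and each had a two-sided exact permutation p of 0.1.

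Centromere and kinetochore CENP genes were the role in which every listed gene was lower, 6 of 6, with a median of -0.56. This did not hold for all genes of that kind. Of 29 kinetochore and centromere genes outside the list, 20 were lower, 0 were higher and 9 did not pass, with a median of -0.36. CENPK, a subunit of the inner kinetochore (chr5:65517766-65563168), had 3445, 3140 and 2927 in WT and 1740, 1664 and 1739 in Delta-TRRAP. Its groups were far apart, with a fall of 45.9% (log2 -0.89 ± 0.06, edgeR adjusted p = 4.57e-09). CENPA, the histone H3 variant that marks the centromere, fell by 0.81. CENPE, a kinesin of the outer kinetochore, fell by 0.60, CENPI by 0.52, CENPF by 0.44 and CENPH by 0.39.

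The chromosomal passenger complex corrects faulty attachments and acts again in cytokinesis. Its kinase AURKB (chr17:8204733-8210600) had 1454, 1507 and 1481 in WT and 916, 889 and 937 in Delta-TRRAP. The 2 groups were narrow and apart, and the fall was 38.3% (log2 -0.70 ± 0.05, edgeR adjusted p = 1.47e-08). CDCA8, which encodes borealin, fell by 0.59 and BIRC5, which encodes survivin, by 0.18. BIRC5 was -0.08 by upper quartile and -0.05 by library size, where it did not pass, and lost its call without any of 4 single libraries, the WT libraries labelled 2 and 3 and the Delta-TRRAP libraries labelled 1 and 2, at -0.15 to -0.20 with adjusted p-values of 0.0121 to 0.0386. INCENP, the scaffold, was at -0.19 with an edgeR adjusted p of 0.0138 and did not pass.

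Spindle motors and assembly factors were lower at 3 of 5 genes. TPX2, which activates AURKA on spindle microtubules (chr20:31739271-31801805), had 15866, 17400 and 17728 in WT and 9958, 10431 and 10120 in Delta-TRRAP, a fall of 40.2% with no overlap (log2 -0.74 ± 0.05, edgeR adjusted p = 1.04e-08). HMMR, a microtubule-binding protein of the spindle (chr5:163460203-163491941), went the other way, with 10557, 9991 and 9050 in WT and 13071, 13336 and 11937 in Delta-TRRAP. Its groups did not overlap, and it was 1.30-fold higher (log2 0.37 ± 0.06, edgeR adjusted p = 8.22e-05).

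The kinesin KIF11, which pushes spindle poles apart, fell by 0.30 and KIF2C, a kinesin that depolymerizes microtubules, by 0.25, but KIF2C was -0.15 by upper quartile and -0.12 by library size and then did not pass. KIF18A, a kinesin that dampens chromosome movement, was at -0.16 and did not pass.

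Midzone and cytokinesis genes had the smallest median of the roles, -0.13, with 1 lower, 1 higher and 3 that did not pass. KIF23, a motor of the centralspindlin complex (chr15:69414246-69448427), had 3897, 3903 and 4006 in WT and 3098, 3342 and 3107 in Delta-TRRAP, and was lower without overlap (-0.31 ± 0.05, edgeR adjusted p = 6.51e-05). ECT2, the exchange factor that switches on RhoA for the contractile ring (chr3:172750682-172821474), had 4710, 4870 and 4787 in WT and 5446, 5729 and 5278 in Delta-TRRAP. Its rise was small, without overlap (0.20 ± 0.05, edgeR adjusted p = 0.00289), and leaving out any of 4 single libraries (each WT library or the Delta-TRRAP library labelled 1) gave 0.18 to 0.20 with an adjusted p of 0.0115 to 0.0144, so that it did not pass.

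The kinesin KIF20A and the ring scaffold ANLN did not pass, at 0.11 and -0.13. PRC1, the microtubule bundler of the midzone, had only 49, 42 and 37 raw counts in WT and 28, 29 and 24 in Delta-TRRAP, and its value of -0.65 ± 0.20 just missed the threshold (edgeR adjusted p = 0.0104). In the annotation used here 57.6% of its exon bases lie under another gene on the same strand, ENSG00000284946, with 383 to 443 counts in WT libraries and, in Delta-TRRAP libraries, 325 to 329. Reads lying in such overlaps are assigned to neither gene in the counting mode of the authors, so the level of PRC1 is uncertain.

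Chromosome structure genes were lower at 3 of 5. TOP2A, the topoisomerase that untangles sister chromatids (chr17:40388525-40417896), had 38946, 40486 and 42893 in WT and 20134, 22330 and 20022 in Delta-TRRAP. The fall was 48.9% with no overlap (log2 -0.97 ± 0.06, edgeR adjusted p = 1.10e-09). The condensin genes NCAPG and SMC2 fell by 0.52 and 0.34, and 2 other condensin genes, NCAPH and SMC4, were at -0.07 and -0.13 and did not pass.

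Levels between genes were compared as TMM-scaled CPM per kilobase of exon. In WT the highest were CDK1 at 179.8 ± 15.9, TOP2A at 164.5 ± 8.0 and CCNA2 at 143.0 ± 2.9 (SD, n = 3), of which CDK1 and TOP2A lie within their spread. In Delta-TRRAP CDK1 was at 113.3 ± 3.2, CCNA2 at 107.3 ± 0.8 and TOP2A at 84.0 ± 5.3, so TOP2A ranked below CCNA2. PRC1 and UBE2C were the lowest in WT, at 0.198 ± 0.029 and 0.444 ± 0.067, with CENPI next at 4.57 ± 0.11.

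Both genes with the clearest rises lie on chromosome 5 among neighbours that were also higher. For each gene, the median log2 fold change was taken over other tested genes within 5 Mb that had a mean normalized count of at least 100. Around PTTG1 that median was 1.01 over 16 genes, and the adjacent gene SLU7, a splicing factor, was at 1.02 ± 0.05. Around HMMR it was 0.90 over 10 genes, above the 0.37 of HMMR, while NUDCD2, the gene adjacent to it, was at 0.16 ± 0.05 and did not pass (edgeR adjusted p = 0.0148). The HMMR neighbour median was 0.64 within 2 Mb and 0.55 within 10 Mb. PTTG1 and HMMR start within 5 Mb of each other, so their neighbourhoods share genes and are not separate observations. The neighbour median of ECT2 was 0.03, but it depended on the distance, at 0.18 within 2 Mb and -0.10 within 10 Mb. That of PTTG1 was 1.00 and 0.74 at those distances, so that PTTG1 lay below its neighbours within 5 Mb and above them within 10 Mb.

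Around several of the genes with large falls the neighbours lay near 0. The neighbour median was -0.01 around MAD2L1, -0.05 around TOP2A, 0.00 around TTK, -0.05 around CDC20 and 0.06 around CENPA. Around SPC25, CENPK and PLK4, which also had large falls, it was lower, at -0.29, -0.30 and -0.23. Elsewhere the surroundings were lower too: -0.78 around KNTC1, -0.64 around AURKA, -0.49 around TPX2 and -0.48 around CDK1. KNTC1 lay above its neighbours at each distance, by 0.26, 0.19 and 0.05 within 2, 5 and 10 Mb. For AURKA the difference from its neighbours was 0.10 within 5 Mb and -0.06 within 2 Mb, and for CDK1 it was -0.19 and 0.04. ZWINT lay 0.71 above a neighbour median of -0.61 within 5 Mb, but 0.09 above within 10 Mb.

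Over the 51 genes, 43 lay below the median of their neighbours and 22 lay below it by at least 0.3. The same count was not taken for all genes or for other highly expressed genes. Neighbours needed a mean normalized count of only 100, while 49 of the 51 genes had 1000 or more, a range with a median of -0.14. The median difference was -0.23, and with neighbours within 2 Mb or 10 Mb it was -0.24 or -0.19. At all of these distances 38 genes lay below their neighbours and 4 above. Whether shared regional change accounts for part of any gene's value was not tested.

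**Figure D5:**
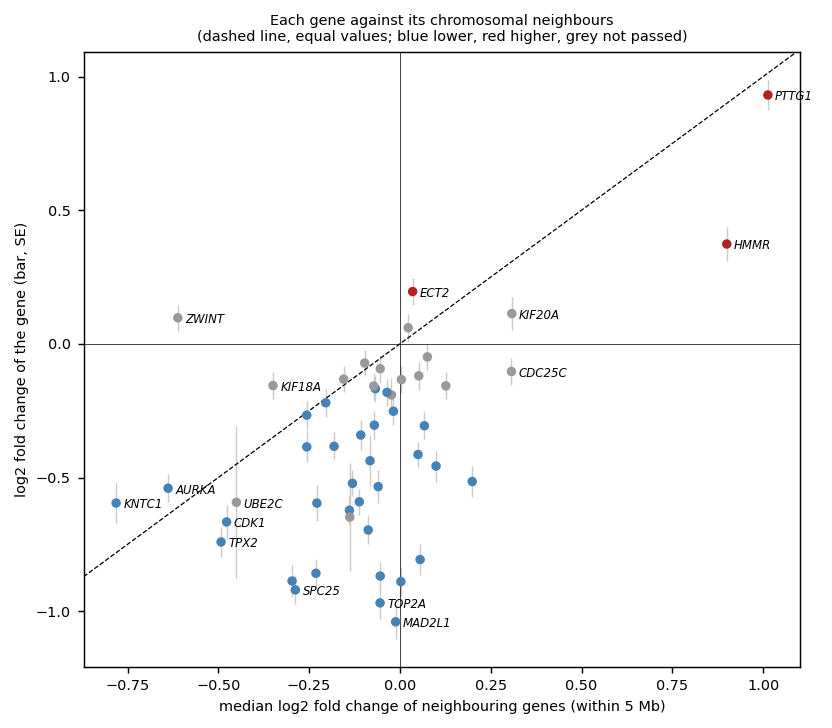
Log2 fold change, Delta-TRRAP over WT, of each of 51 genes (vertical axis; bar, SE) against the median of its neighbours within 5 Mb (horizontal axis), with blue lower, red higher and grey not passed at an adjusted p of 0.01 or less. Most points, 43 of 51, lie below the dashed line of equal values, while PTTG1 lies near it at a neighbour median of 1.01. The share below the line was not taken for other genes.

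The lower level was not limited to the listed genes. Of 125 other mitotic genes, 82 were lower and 6 higher, with a median of -0.29. The shares of all genes were 27.6% lower and 30.7% higher, and of highly expressed genes 45.9% and 22.1%. The largest falls were ANAPC5, a subunit of the anaphase-promoting complex, at -1.15 ± 0.05, CENPJ, a centriole protein, at -1.08 ± 0.06, and TOP2B, the other type II topoisomerase, at -0.99 ± 0.06. ANAPC5 lies among neighbours with a median of -0.77. The largest rises were NEK9, a mitotic kinase, at 1.15 ± 0.06, BOD1 at 0.39 ± 0.06 and CDC23, another subunit of the anaphase-promoting complex, at 0.33 ± 0.05.

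Genes of the preceding phases of the cycle were also mostly lower. Of 51 G1/S and replication genes 33 were lower and 4 higher, with a median of -0.32, beside the same 27.6% and 30.7% of all genes. The largest falls were UHRF1, which maintains DNA methylation at forks, at -1.30 ± 0.05, CCNE1, the G1/S cyclin, at -1.22 ± 0.05, and RPA3, a subunit of the single-strand binding protein, at -0.79 ± 0.07. Genes that rose included POLA2, a subunit of the polymerase that primes replication, at 0.50 ± 0.10 and RFC1, a subunit of the clamp loader, at 0.26 ± 0.06. No difference between these lists and the mitosis and kinetochore genes was tested.

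Among 16 genes for factors that act on mitotic promoters, 9 were lower and 2 higher. Of all genes 27.6% were lower and 30.7% higher, and of highly expressed genes 45.9% and 22.1%, and no difference from these shares was tested. MYBL2, which encodes B-MYB, had 7379, 7764 and 7696 in WT and 4631, 4802 and 4497 in Delta-TRRAP, a fall without overlap (-0.71 ± 0.05, edgeR adjusted p = 6.47e-09). It lies on chromosome 20 among neighbours with a median of -0.54. FOXM1, the forkhead factor of the G2/M programme, had 2031, 2204 and 2276 in WT and 2392, 2550 and 2393 in Delta-TRRAP, and at 0.17 ± 0.06 it did not pass (edgeR adjusted p = 0.0130). The NF-Y subunits NFYB and NFYA, which bind CCAAT boxes, were at -0.92 ± 0.07 and -0.61 ± 0.05, and NFYC was at 0.16 and did not pass.

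EP400 itself, whose counts do not separate the tagged endogenous transcript from the transgene, had 4897, 4897 and 5377 in WT and 5533, 6833 and 4357 in Delta-TRRAP. The groups overlapped, and the difference did not pass (0.14 ± 0.11, edgeR adjusted p = 0.272).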

How the data were processed

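Poly(A) RNA-seq of 6 K562 libraries was used, 3 per group, with groups and replicate numbers taken from the sample titles. The authors deposited raw counts per gene, made by aligning reads to hg38 with STAR and counting uniquely mapped reads per GENCODE gene with HTSeq 2.0.2 in reverse-stranded union mode. The methods of the study call the replicates biological, so p-values measure spread between cultures of 1 clone per line. Chi-square statistics between libraries of a group were 5.43 to 17.5 per degree of freedom, so none was counted as a duplicate. The deposited normalized table and table of comparisons (fold changes and p-values) were not used.

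The test of the counts was that of edgeR 4.0.16, run in R 4.3.3 (TMM, quasi-likelihood F test, group as the only term). Of 34998 genes with a count, 19114 whose normalized count averaged 5 or more were tested, and p-values were adjusted by Benjamini-Hochberg over all of them. A gene passed at an adjusted p of 0.01 or less and reached the fold criterion of the study at a fold of 2. To normalize, each count was divided by the effective (TMM) library size over the geometric mean of the 6. Errors are SD for counts and ratios and SE for log2 fold changes, and fold changes are Delta-TRRAP over WT. The SE was derived from the test, as the absolute log2 fold change over the square root of the F statistic. The edgeR, DESeq2 and limma-voom fits were tested on simulated data. The alternatives were DESeq2 1.42.0, limma-voom (limma 3.58.1), other scalings and filters, the replicate number as a block, other thresholds and leaving out each library.

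Gene positions and exons came from GENCODE 44 on GRCh38, which shared an ID with 19041 tested genes, and promoters from RefSeq. Same-numbered libraries did not deviate together (correlations 0.09, -0.08 and -0.19), so the numbers do not pair them.

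The genes and the comparison lists were chosen with earlier results of these data known. Values per library were given for genes past a fold of 2, for the lowest adjusted p of each role in each direction, for CCNB1, CDK1, PLK1, AURKA, BUB1 and TOP2A, and for FOXM1, MYBL2 and EP400. UBE2C, PRC1 and the count ratios were added after their values had been seen. From the other mitotic and the G1/S genes, the 3 largest falls and 3 largest rises past the threshold were named where the normalized count averaged 100 or more, except 1 that is not reported here.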

Additional observations from a re-analysis of the deposited data

How the results depend on the processing

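A depth of 11 to 49 raw counts limits what can be said of UBE2C and PRC1. With 3 libraries per group, several small changes gained or lost a call with another scaling or without a single library. The 1 clone per line is not covered by any test. Over the 51 genes and their alternatives, 645 values kept direction and side of the threshold, 29 gained a call, 27 lost one and 11 changed sign. All 6 fits that leave out a library kept 41 of the 51 genes on their side, and 30 kept it under every alternative run. Leaving out each library in turn gave 30 to 34 genes lower, 2 to 4 higher, 1 to 2 past a fold of 2 and a median of -0.40 to -0.33; without the Delta-TRRAP library labelled 2, TOP2A was the second gene past a fold of 2.

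With the replicate block, 30 genes were lower against 32 without it and 3 were higher, and no other count of calls moved by over 1.5 times. Scaling by the upper quartile moved the median of all genes by 0.10 and by library size alone by 0.13. The genes higher then numbered 5 and 6, the other mitotic genes higher 10 and 14, and the G1/S genes higher 8 by library size. Of all genes, 11126 of 19112 and 11287 of 19161 then passed in either direction, against 11149 of 19114 in the main test. The share of all genes lower or higher was not counted for these scalings or without a single library. The median of the 51 genes was -0.28 by upper quartile and -0.25 by library size. Relative to the median of all genes it stayed at -0.41 and -0.42, against -0.41 in the main test, but it was -0.27 with a minimum mean count of 50 and -0.52 with no filter. With a minimum mean count of 50 the median was -0.27, with 49 of the genes tested. At a fold of 1.5 there were 16 genes past the limit, but the share of all genes past it at the same adjusted p was not counted. Without a p threshold, 25.4902% of the 51 genes lay at or below a log2 fold change of -0.6. For all genes this was 15.9883%, and for highly expressed genes 14.8589%. At or below 0.6 lay 98.0392% of the 51, 74.0033% of all genes and 93.6949% of highly expressed genes. Large rises were thus more common among all genes, so the 16 do not show an excess in both directions together.

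Signs turned in 6 genes that had not passed: by library size CDC25C 0.0301, BUB3 0.0136, NDC80 0.0844, SPC24 0.0405, NCAPH 0.0613 and SMC4 0.0011; by upper quartile NDC80 0.0525, SPC24 0.0082 and NCAPH 0.0292; with a minimum of 50 NDC80 0.0240 and NCAPH 0.00087. Under both scalings CCNB1, CCNB2, CDC25A, BIRC5 and KIF2C stayed negative and lost their calls, and ZWINT and KIF20A were called higher, as was CDC25B by library size. Without a single library, calls were gained by PLK1 (-0.20) and INCENP (-0.23) without the WT library labelled 1, by INCENP (-0.23) and ANLN (-0.16) without the Delta-TRRAP library labelled 2, and by BUB3 (-0.17), ZWILCH (-0.18), KIF18A (-0.18) and KIF20A (0.17) without that labelled 3. The cause was not tested.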

Other observations

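Some mitosis and kinetochore genes share exons or near-identical copies with other genes in the annotation. For BUB1B, 10.2% of exon bases overlap PAK6 and a read-through gene on the same strand; PAK6 had 36 to 44 counts in WT libraries and, in Delta-TRRAP libraries, 1233 to 1375, while BUB1B fell. UBE2CP2, a pseudogene of UBE2C, had 2 to 3 counts in WT libraries and, in Delta-TRRAP libraries, 15 to 19. The securin relatives PTTG2 and PTTG3P had at most 4 counts in any library.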
